A study of Homo sapiens with 10 samples.

Results

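Eukaryotic initiation factors are the proteins that bring the initiator tRNA, the small ribosomal subunit and an mRNA together, find the start codon and let the large subunit join. The genes described here are those whose symbol in the deposited count table begins with EIF1 to EIF6, without the eIF2α kinases, and which held at least 10 counts summed over all libraries. Of 55 rows whose symbol matched, 48 passed this minimum, out of 32738 rows in the table, and all 48 also passed the filter on low counts and were tested. The 7 rows under the minimum were EIF1AX-AS1, EIF1AY, EIF2B5-AS1, EIF2S3L, EIF4E1B, EIF4E3 and EIF4EBP3. HepG2 cells, an established human hepatoma line, were kept for 17 h either in regular growth medium (control) or in medium with 2 µg/ml tunicamycin, and 5 libraries were made per condition. Each replicate number stands for an experiment done on its own day, and the labels name no other treatment or genetic change in either condition. Tunicamycin blocks N-linked glycosylation, so that unfolded glycoproteins accumulate in the endoplasmic reticulum (ER).

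Initiation is a main point of control of protein synthesis under ER stress. The kinase PERK phosphorylates the α subunit of eIF2, which carries the initiator tRNA, and phosphorylated eIF2 blocks its own exchange factor eIF2B, so that general initiation falls while some mRNAs, among them that of the transcription factor ATF4, are translated better. A separate arm acts at the mRNA cap, where the 4E-BP proteins, regulated by mTORC1, keep the cap-binding protein eIF4E away from the scaffold eIF4G. The libraries measure the mRNAs of these factors, not their proteins or phosphorylation.

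The libraries held 4242538 to 4888292 counts in control cells and 2234682 to 5029864 counts with tunicamycin, with the lowest total in tunicamycin replicate 5. All 7 hepatocyte markers examined were detected, at a summed 14464.4 to 18240.1 CPM (counts scaled to a fixed library total) in control and 9903.8 to 12099.7 CPM in tunicamycin libraries. Of the 6 markers of other cell types found in the table, PTPRC, COL1A2 and KRT5 were at 0 in every library, and all 6 together reached 8.4 CPM at most, nearly all of it from CD68. The part of the lower hepatocyte marker sum in the results was not tested. Levels are given as normalized counts, which are counts scaled by the TMM method to a common library size. The libraries are made from the 3′ ends of mRNAs, about 1 fragment per transcript, so levels of different genes are compared without a length correction. Because each library pools all cells of a culture, a change in every cell and a larger change in some cells cannot be told apart.

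Most of the calls in the set were increases with tunicamycin: 26 of the 48 genes (54.2%) were called higher and 1 (2.08%) lower by the quasi-likelihood test of edgeR, with a threshold of 0.05 on the adjusted p. Over all 12733 genes tested, 17.6% were higher and 16.6% lower by the same rule. The median log2 fold change of the 48 genes was 0.36, and that of all genes tested was -0.003. Of the 27 called genes, 24 moved the same way in all 5 replicate pairs, 19 moved by more than 1.5-fold, all of them upward, and 8 by more than 2-fold. In 17 genes every tunicamycin library lay above every control library, a pattern found in 11.7% of all genes tested, while none lay wholly below, a pattern of 11.9% of all genes. These shares over all genes are also the background for the counts by role below. Most roles hold few genes, so their counts do not set 1 role apart from another. With library size as the only scaling, the median of all genes moved to -0.083 and that of the 48 genes to 0.28, with 23 higher and 2 lower, and 40.8% of all called genes were then higher, against 51.4% with TMM. EIF2B1, EIF2B2 and EIF6 lost their call under that scaling, and EIF1AX, which codes for eIF1A, became lower.

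**Figure D1:**
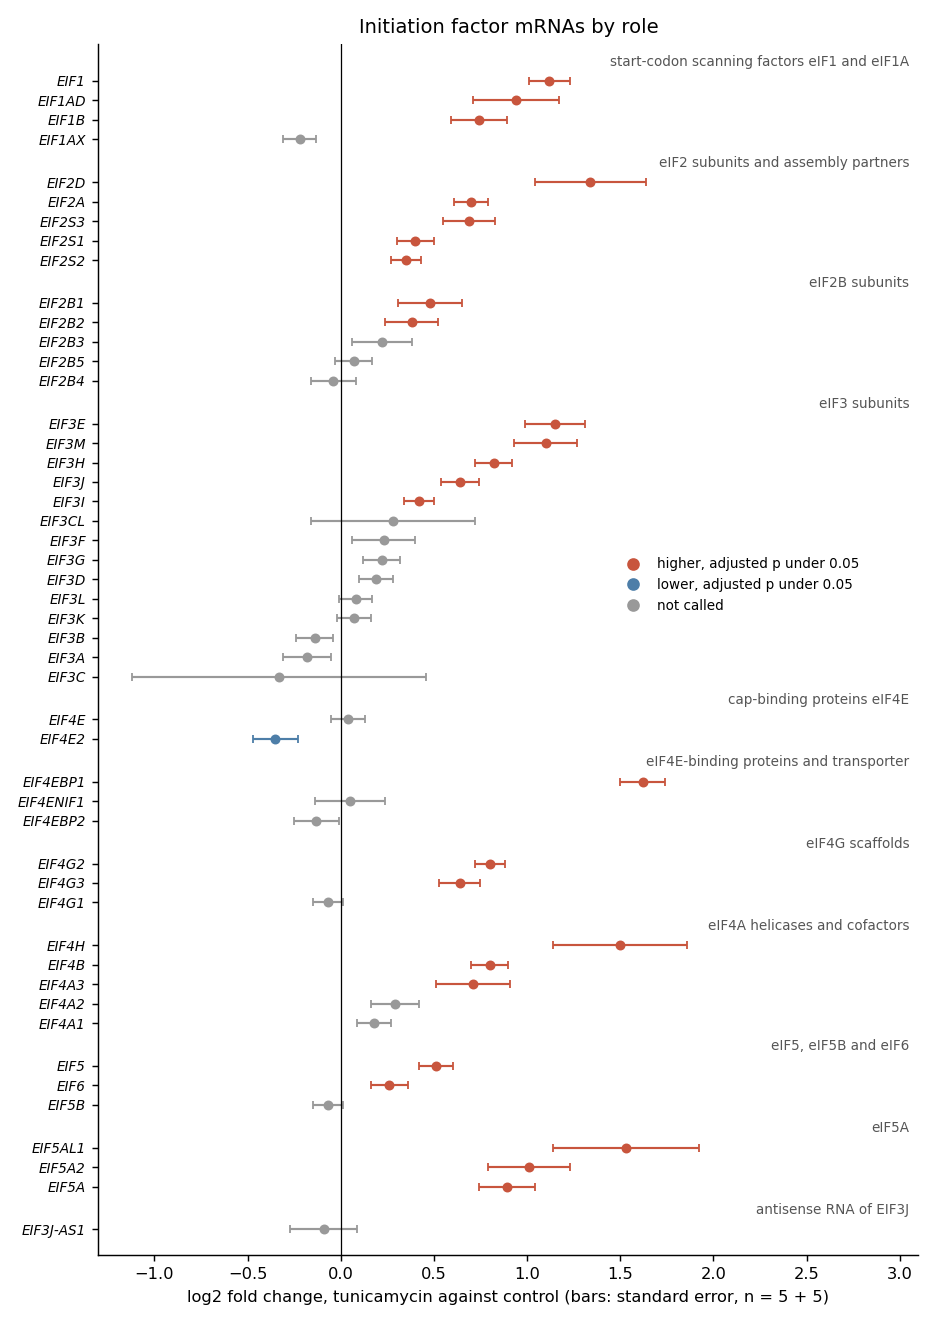
Log2 fold change of each of the 48 initiation factor genes, tunicamycin against control, grouped by role (points, with standard errors as bars, 5 libraries per condition). Red points are the 26 genes called higher, the blue point is EIF4E2, the only gene called lower, and grey points are the 21 genes not called.

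Summed together, the set took a larger part of the libraries, although 21 of the 48 genes were not called and 1 was lower. Genes with many counts weigh most in this sum. EIF4G2 rose from a mean of 2599 to 4511 normalized counts and EIF1 from 1513 to 3280. EIF3A went from 2380 to 2100 and EIF5B from 4788 to 4548, neither of them called. Summed over the 48 genes, the share of non-mitochondrial counts was 1.02, 1.02, 1.03, 0.995 and 0.973% in the control libraries and 1.21, 1.17, 1.2, 1.31 and 1.23% in the tunicamycin libraries. All tunicamycin libraries lay above all control libraries, with means of 1.01% ± 0.0227 and 1.23% ± 0.0517 (SD, n = 5 each). The difference of 0.219 percentage points gave p = 0.00794 in a two-sided exact permutation test, the smallest p that 5 against 5 libraries allow. Within pairs the share rose in 5 of 5, where the smallest p that sign flips allow is 0.0625. EIF5B, the factor that joins the ribosomal subunits, had the most counts of the set, and without it the share rose from 0.859% to 1.09%. EIF5B itself did not rise (log2 fold change -0.07), so leaving it out does not show whether a single gene carries much of the rise. EIF5AL1 had 5128 and 2934 normalized counts in tunicamycin replicates 4 and 5 and 929 or below elsewhere, and the share without it was not computed.

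The promoter windows of 3 of the higher genes are shown because each holds a match to a motif that was searched. RefSeq promoter windows on GRCh38.p14 were available for 39 of the 48 genes, 22 of the 26 higher ones among them, and the 250 bases before each start were searched on both strands for 4 motifs. The ER stress response element, made of CCAAT and CCACG with 9 bases between them, which binds NF-Y and ATF6, occurred in 22 of 27305 promoters (0.0806%), and of the initiation factor genes only that of EIF2A held it. The AP-1 motif, searched as TGANTCA, occurred in 6.6% of promoters and in 2 of the 39 windows, those of EIF3J and EIF5AL1. The AP-1 consensus given in the paper has G or C at the open position. EIF3J has C there (TGACTCA), while EIF5AL1 has T (TGATTCA), outside that consensus. The C/EBP-ATF composite motif TGATGNAA, which binds ATF4, and the cyclic AMP response element TGACGTCA occurred in 3.19% and 1.77% of promoters and in 0 of the 39 windows. A match is a description of the letters and does not show that a factor binds there. The search covered only the 250 bases before a RefSeq start, and sites after the start, in introns or farther upstream were not looked for. A window without a match therefore does not show that the gene lacks such a site. In the windows below, written 5′ to 3′ on the plus strand up to the base before the start, capitals mark the motif.
EIF2A, chr3:150546537-150546786: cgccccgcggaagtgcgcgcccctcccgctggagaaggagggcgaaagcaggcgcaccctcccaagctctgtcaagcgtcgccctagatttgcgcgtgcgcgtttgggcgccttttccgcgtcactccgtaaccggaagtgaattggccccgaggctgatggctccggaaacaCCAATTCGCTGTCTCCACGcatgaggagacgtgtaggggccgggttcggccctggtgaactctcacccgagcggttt
EIF3J, chr15:44536897-44537146: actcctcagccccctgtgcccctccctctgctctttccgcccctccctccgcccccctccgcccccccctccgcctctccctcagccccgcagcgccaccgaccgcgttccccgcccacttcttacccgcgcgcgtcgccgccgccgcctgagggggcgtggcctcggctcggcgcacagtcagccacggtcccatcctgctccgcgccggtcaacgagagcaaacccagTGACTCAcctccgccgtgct
EIF5AL1, chr10:79512283-79512532: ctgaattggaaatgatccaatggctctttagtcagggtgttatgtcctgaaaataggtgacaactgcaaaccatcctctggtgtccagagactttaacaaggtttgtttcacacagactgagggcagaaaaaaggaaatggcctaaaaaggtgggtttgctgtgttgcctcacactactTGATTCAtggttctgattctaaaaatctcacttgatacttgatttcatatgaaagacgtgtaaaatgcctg

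In EIF2A, the element lies 77 to 59 bases before the RefSeq start. SERP1, which codes for a small protein of the ER membrane that protects newly made proteins under stress, starts 291 bases away on the opposite strand, and the element lies between both RefSeq starts, 214 bases from that of SERP1. SERP1 rose from 412.0 ± 27.5 to 1127 ± 88.3 normalized counts (mean ± SD, n = 5 each), with a log2 fold change of 1.45 (SE 0.09, adjusted p = 2.77e-10). SERP1 was named after its position beside EIF2A had been seen. In EIF3J the AP-1 motif lies 20 to 14 bases before the start, and in EIF5AL1 71 to 65 bases before it. These distances hold for the RefSeq starts. GENCODE v44 places the start of EIF2A at chr3:150546678 and that of EIF3J at chr15:44537125, upstream of the motif in both, so that by GENCODE the motifs lie inside the genes. The GC content of the windows was 64.8%, 74.4% and 40.4% for EIF2A, EIF3J and EIF5AL1, and the medians were 64.8% over the 39 windows and 58.0% over all promoters.

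Start-codon selection is governed by eIF1 and eIF1A, which hold the scanning small subunit open until the start codon is met. Of the 4 genes grouped here by these names, 3 were higher and 0 lower, with a median log2 fold change of 0.84. EIF1AD, 1 of the 3, is counted by its name only and not as a start-codon selection factor. EIF1, the abundant eIF1 gene, had 1094, 1462, 1666, 1732 and 1613 normalized counts in the control libraries and 2991, 3171, 3550, 3448 and 3241 in the tunicamycin libraries. The groups did not overlap, control replicate 1 was the lowest, and the log2 fold change was 1.12 (SE 0.11, adjusted p = 2.5e-07). Its paralog EIF1B had 80.0, 91.0, 117, 116 and 102 normalized counts without and 146, 147, 158, 180 and 230 with tunicamycin, again without overlap, at a log2 fold change of 0.74 (adjusted p = 0.000586). EIF1AD, a gene named for its eIF1A-like domain, had 27.5, 25.0, 41.1, 42.1 and 38.6 normalized counts in control and 35.5, 85.3, 78.4, 72.8 and 62.6 with tunicamycin. It rose in every pair although tunicamycin replicate 1 lay within the control range, with a log2 fold change of 0.94 (SE 0.23, adjusted p = 0.00342). EIF1AX, the eIF1A gene proper, went from 776 ± 26.1 to 664 ± 96.9 normalized counts (mean ± SD, n = 5 each; log2 fold change -0.22, adjusted p = 0.0802). With the replicate block it was called lower in edgeR, at -0.23 (adjusted p = 0.0342), but not in DESeq2 (adjusted p = 0.0632). The genes of both proteins that work together on the scanning subunit, EIF1 and EIF1AX, thus had estimates of opposite sign.

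Among the subunits of eIF2 and the related tRNA-delivering factors every gene rose: 5 of 5 were higher, with a median log2 fold change of 0.69. EIF2S1 codes for the α subunit that carries the regulatory phosphorylation site. It had 231, 253, 283, 239 and 235 normalized counts in control libraries and 307, 275, 323, 378 and 359 with tunicamycin. It rose in every pair, with 1 tunicamycin library inside the control range, and its log2 fold change was 0.40 (SE 0.10, adjusted p = 0.00592). EIF2S2, coding for the β subunit, was more abundant, with 2801, 2441, 2683, 2626 and 2616 normalized counts in control and 3585, 3267, 3611, 3077 and 3245 with tunicamycin. The groups did not overlap and the log2 fold change was 0.35 (SE 0.08, adjusted p = 0.00218). EIF2S3, coding for the γ subunit that binds GTP and the initiator tRNA, had 184, 208, 237, 254 and 251 normalized counts without and 278, 333, 322, 471 and 442 with tunicamycin. Its libraries did not overlap either, and it had the largest change of the 3 subunit genes, 0.69 (SE 0.14, adjusted p = 0.000664), although differences between the subunits were not tested.

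EIF2A and EIF2D code for single-chain proteins outside the eIF2 trimer that can bring tRNA to the ribosome without its GTP cycle. EIF2A had 225, 213, 228, 233 and 189 normalized counts in control libraries and 366, 390, 343, 352 and 317 with tunicamycin. All values with tunicamycin lay above all control values, at a log2 fold change of 0.70 (SE 0.09, adjusted p = 1.24e-05). EIF2D had 23.2, 29.4, 58.6, 103 and 84.4 normalized counts without and 85.3, 158, 147, 194 and 178 with tunicamycin. Its libraries varied more from day to day than those of EIF2A, 4.43-fold between the highest and the lowest control library, but tunicamycin was higher in all 5 pairs (log2 fold change 1.34, SE 0.30, adjusted p = 0.00188).

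The exchange factor eIF2B reloads eIF2 with GTP and is the target of phosphorylated eIF2. Of its 5 subunit genes, 2 were higher and 0 lower, with a median log2 fold change of 0.22, and with library size as the only scaling 0 were called. EIF2B1, the α subunit gene, went from 94.4 ± 23.1 to 133 ± 24.1 normalized counts (log2 fold change 0.48, adjusted p = 0.0345), and EIF2B2, the β subunit gene, from 131 ± 19.9 to 168 ± 32.7 (0.38, adjusted p = 0.0465; SD, n = 5 each). Both calls were close to the threshold. EIF2B1 kept its call only without control replicate 5 or tunicamycin replicate 1 among 10 fits that each left out 1 library, with log2 fold changes of 0.37 to 0.61 and adjusted p-values of up to 0.081. EIF2B2 kept it only without control replicate 1 or 4 or tunicamycin replicate 5, with 0.31 to 0.47 and adjusted p-values of up to 0.135. EIF2B3, EIF2B4 and EIF2B5, coding for the γ, δ and catalytic ε subunits, had log2 fold changes of 0.22, -0.04 and 0.07 and were not called.

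The scaffold eIF3 binds the small subunit and recruits the mRNA complex, and its genes split into a part that rose and a part that was not called. Of 14 genes, 5 were higher and 0 lower, against 17.6% and 16.6% over all genes tested, with a median log2 fold change of 0.22. The 5 were EIF3E, EIF3H and EIF3M, which belong to the octameric core built on PCI and MPN domains, EIF3I of the peripheral module with eIF3b and eIF3g, and EIF3J, a loosely attached subunit. In all 5 every tunicamycin library lay above every control library, a pattern of 11.7% of all genes tested.

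EIF3E had 353, 366, 487, 492 and 384 normalized counts in control libraries and 567, 889, 894, 1159 and 1142 with tunicamycin. The change was 1.15 on the log2 scale (SE 0.16, adjusted p = 1.34e-05), and tunicamycin replicate 1 was the lowest of the treated libraries. EIF3M had 214, 310, 456, 504 and 447 normalized counts without and 690, 772, 879, 897 and 912 with tunicamycin, a log2 fold change of 1.10 (SE 0.17, adjusted p = 4.89e-05). Both genes thus more than doubled, while control replicate 1 was the lowest library in both. EIF3H had 295, 381, 365, 394 and 371 normalized counts in control and 534, 686, 648, 640 and 678 with tunicamycin, at 0.82 (SE 0.10, adjusted p = 3.21e-06). EIF3J went from 1043 ± 72.8 to 1625 ± 218 normalized counts (0.64, adjusted p = 4.95e-05) and EIF3I from 719 ± 17.4 to 964 ± 89.5 (0.42, adjusted p = 0.000574; SD, n = 5 each). EIF3J-AS1, a noncoding RNA transcribed away from EIF3J on the other strand, was the only noncoding member and was not called (log2 fold change -0.09, adjusted p = 0.745).

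The other core and peripheral subunits stayed within smaller estimates. EIF3A, the largest subunit and a scaffold of the core, went from 2380 ± 256 to 2100 ± 486 normalized counts (mean ± SD, n = 5 each; log2 fold change -0.18, adjusted p = 0.31). EIF3B, EIF3D, EIF3F, EIF3G, EIF3K and EIF3L had log2 fold changes between -0.14 and 0.23 and adjusted p-values of at least 0.0999. EIF3D, whose protein can itself bind the cap of some mRNAs, was at 0.19 (adjusted p = 0.115). Without control replicate 1, EIF3D was called higher at 0.26 (adjusted p = 0.0173) and EIF3G at 0.28 (adjusted p = 0.0364), and without both libraries of replicate 1 EIF3A was called lower at -0.30 (adjusted p = 0.0459). A p that misses the threshold does not show that these subunits kept their level.

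EIF3C, the remaining core subunit gene, had counts in a high and a low range within each condition, and no difference between the conditions could be read from it. It had 14.6, 470, 332, 42.1 and 331 normalized counts in control libraries and 441, 415, 12.3, 9.62 and 8.07 with tunicamycin. The highest library held 32.1 times the lowest in control and 54.6 times with tunicamycin, and the low libraries were control replicates 1 and 4 and tunicamycin replicates 3, 4 and 5. The log2 fold change was -0.33 with a standard error of 0.79 (adjusted p = 0.777). It was -0.81 with the replicate block in edgeR (adjusted p = 0.386) and -2.04 in DESeq2 (adjusted p = 0.206), and it lay between -0.97 and 0.07 when single libraries were left out. Its near-copy EIF3CL had 7.75, 5.35, 5.25, 4.48 and 2.03 normalized counts without and 5.07, 4.96, 5.67, 9.62 and 6.05 with tunicamycin. EIF3CL stayed at 9.62 or below in every library, and the sum of both genes gave -0.32 (adjusted p = 0.774).

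**Figure D2:**
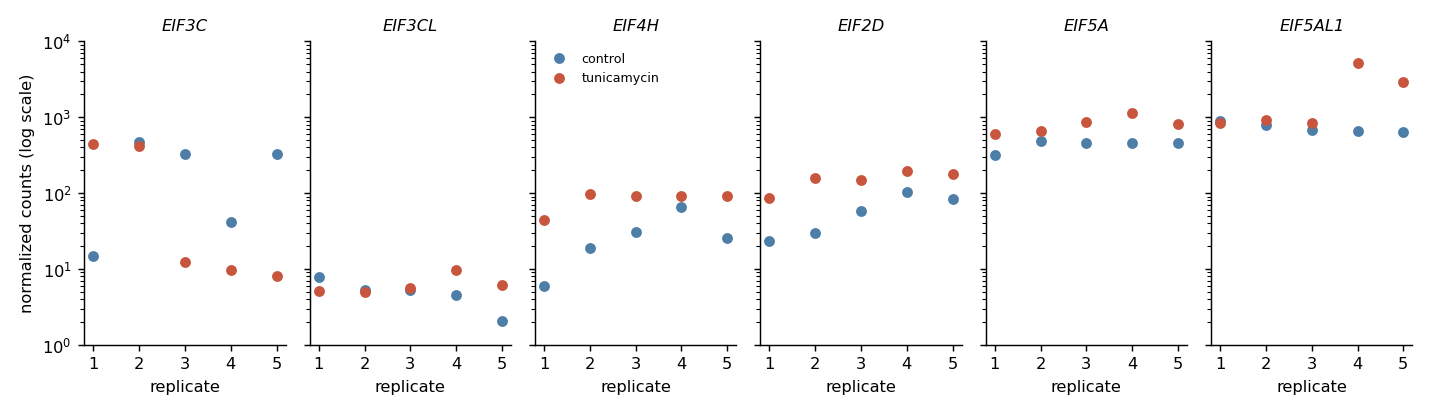
Normalized counts (log axis) of 6 genes by replicate number, control in blue and tunicamycin in red, 1 point per library. EIF3C lies at 42.1 or below in 5 libraries and at 331 or above in the other 5, EIF5AL1 reaches 5128 and 2934 in tunicamycin replicates 4 and 5 and stays at 929 or below elsewhere, and EIF4H and EIF2D are lowest in replicate 1 of both conditions.

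The gene pair lies on chromosome 16, EIF3C at chr16:28688558-28735727 on the plus strand and EIF3CL at chr16:28379579-28403841 on the minus strand (GRCh38, GENCODE v44). As 3′ reads from near-identical copies can be assigned to either or to none, the last 500 bases of each gene's main transcript were cut into windows of 50 bases and looked up in the whole genome. In EIF3C and EIF3CL, 65.6% of windows also occurred elsewhere. The share was 88.9% for EIF4H, 65.6% for EIF4B, 43.2% for EIF5A, 38.4% for EIF5AL1, 33.7% for EIF4A2, 31.3% for EIF3I, 23.7% for EIF3L and 12.4% for EIF4A1. EIF1AD, EIF2S3, EIF2B1 and EIF4G3 had 9.53% or less, and the other 34 genes had none. The share of windows does not measure how far the counts of the first-named genes are uncertain. It rests on the GRCh38 sequence and not on the reads or on hg19, to which the counts belong. The part of repeated sequence in their changes was not tested. Among control libraries, the median spread between the highest and the lowest was 1.35-fold over the 48 genes. EIF3C, EIF4H, EIF3CL and EIF4B, with the largest shares of repeated windows, spread 32.1-, 10.9-, 3.81- and 1.27-fold. EIF2D, EIF4A3, EIF3M and EIF3F, with no repeated window, spread 4.43-, 2.99-, 2.35- and 2.23-fold. The part of repeated sequence in these spreads was not tested either.

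At the cap, 1 of 3 genes of eIF4E-binding proteins and transporter was higher and 0 were lower. EIF4EBP1, coding for 4E-BP1, had 99.8, 68.7, 68.2, 74.4 and 91.5 normalized counts in control libraries and 242, 231, 244, 246 and 280 with tunicamycin. It rose 3.08-fold, with means of 80.5 ± 14.3 and 249 ± 18.6 (SD, n = 5 each), with a log2 fold change of 1.62 (SE 0.12, adjusted p = 1.02e-08), and the lowest treated library lay far above the highest control library. EIF4EBP2, coding for 4E-BP2, went from 201 ± 32.2 to 184 ± 11.8 and was not called (log2 fold change -0.13, adjusted p = 0.438). EIF4E itself went from 290 ± 21.7 to 299 ± 15.8 (0.04, adjusted p = 0.746). EIF4ENIF1, which carries eIF4E into the nucleus, was at 0.05 (adjusted p = 0.881).

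The only lower gene of the set was EIF4E2, coding for 4EHP, which binds the cap but not eIF4G and represses the mRNAs it holds. It went from 479 ± 46.4 to 371 ± 73.6 normalized counts (mean ± SD, n = 5 each) and fell in all 5 pairs, although the groups overlapped (log2 fold change -0.35, SE 0.12, adjusted p = 0.0279). The call was lost without control replicate 1, 2 or 4 or tunicamycin replicate 4 or 5, with log2 fold changes of -0.44 to -0.26 over the fits without 1 library and adjusted p-values of up to 0.065.

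**Figure D3:**
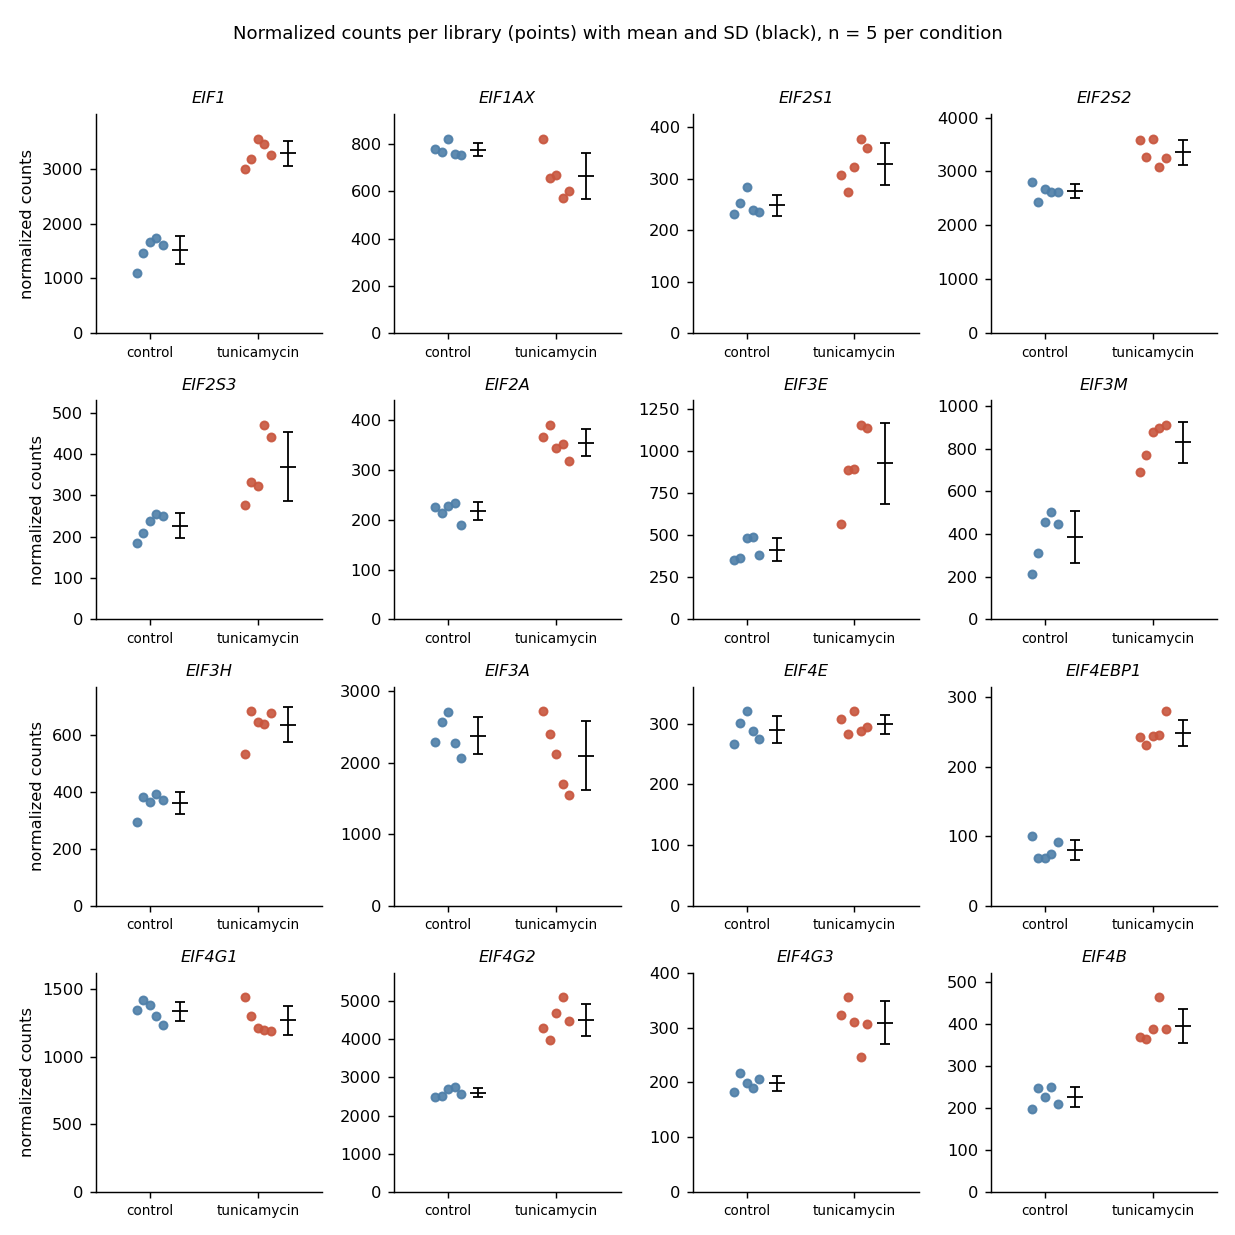
Normalized counts per library (points) with mean and SD in black for 16 initiation factor genes, 5 control and 5 tunicamycin libraries each, with every axis starting at 0. EIF4EBP1, EIF1, EIF3E and EIF3M show treated libraries wholly above the controls, whereas EIF4E, EIF4G1, EIF3A and EIF1AX overlap.

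The scaffold eIF4G links the cap to the helicase and to eIF3, and its 3 genes differed: 2 were higher and 0 lower. EIF4G2 codes for DAP5, which lacks the eIF4E-binding part and serves cap-independent initiation. It had 2483, 2520, 2699, 2740 and 2553 normalized counts in control and 4297, 3990, 4691, 5108 and 4467 with tunicamycin, at a log2 fold change of 0.80 (SE 0.08, adjusted p = 6.55e-07). The groups did not overlap, and with tunicamycin its mean of 4511 was close to that of EIF5B, 4548. EIF4G3 went from 199 ± 13.9 to 309 ± 39.6 (0.64, SE 0.11, adjusted p = 0.000105; SD, n = 5 each). EIF4G1, the main cap-dependent scaffold gene, was at 1336 ± 70.1 and 1270 ± 106 and was not called (-0.07, adjusted p = 0.537).

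The helicase eIF4A unwinds mRNA leaders with the help of eIF4B and eIF4H. In this role 3 of 5 genes were higher and 0 lower, with a median log2 fold change of 0.71, and neither of the eIF4A genes proper was called. EIF4B had 197, 247, 227, 250 and 210 normalized counts without and 369, 365, 388, 464 and 387 with tunicamycin, without overlap (0.80, SE 0.10, adjusted p = 5.41e-06). EIF4H had 6.03, 18.7, 30.6, 65.4 and 25.4 normalized counts in control and 44.8, 96.3, 92.6, 92.0 and 92.8 with tunicamycin. It rose in every pair with the groups overlapping, at 1.5 (SE 0.36, adjusted p = 0.00295), and it had the largest share of repeated sequence given above. EIF4A3, which sits in the exon junction complex rather than in cap-dependent initiation, had 158, 254, 346, 473 and 344 normalized counts in control and 376, 493, 555, 595 and 573 with tunicamycin. It was higher in all 5 pairs with the groups overlapping (0.71, SE 0.20, adjusted p = 0.00865). EIF4A1 was at 0.18 (adjusted p = 0.106) and EIF4A2 at 0.29 (adjusted p = 0.0945), and EIF4A2 was called higher with the replicate block in edgeR, at 0.27 (adjusted p = 0.0279), but not in DESeq2 (adjusted p = 0.0687).

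The last steps of initiation are GTP hydrolysis by eIF2, set off by eIF5, and subunit joining, which eIF5B drives and eIF6 on the large subunit prevents. EIF5 went from 972 ± 84.0 to 1384 ± 154 normalized counts (mean ± SD, n = 5 each), without overlap, at a log2 fold change of 0.51 (SE 0.09, adjusted p = 0.000292). EIF5B, at 4788 ± 294 and 4548 ± 297, was not called (-0.07, adjusted p = 0.512). EIF6 was called at 0.26 (adjusted p = 0.0421), but it kept that call only without control replicate 1 or tunicamycin replicate 1 among the fits without 1 library, with 0.22 to 0.35 and adjusted p-values of up to 0.0981.

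All 3 eIF5A genes were higher, with a median log2 fold change of 1.01. eIF5A helps the ribosome through slow peptide bonds and is the protein that carries hypusine. EIF5A had 313, 483, 455, 464 and 464 normalized counts in control libraries and 594, 659, 863, 1124 and 807 with tunicamycin, without overlap (0.89, SE 0.15, adjusted p = 0.000128). EIF5A2 had 31.8, 24.1, 28.9, 20.6 and 20.3 normalized counts in control and 45.6, 61.5, 32.1, 63.2 and 56.5 with tunicamycin (1.01, SE 0.22, adjusted p = 0.00137). Its groups were barely apart, with 31.8 in control replicate 1 and 32.1 in tunicamycin replicate 3. Before scaling these libraries held 37 and 34 counts of EIF5A2, so the separation rests on the scaling. EIF5AL1, a near-copy of EIF5A, was uneven, and its library values were chosen for printing after they were seen. It had 883, 799, 687, 656 and 648 normalized counts in control and 827, 929, 846, 5128 and 2934 with tunicamycin. Tunicamycin replicates 4 and 5 lay far above all other libraries, and the remaining treated libraries lay close to the controls. The log2 fold change was 1.53 (SE 0.39, adjusted p = 0.0046), and 0.90 without tunicamycin replicate 4 (adjusted p = 0.0197). DESeq2 with the replicate block did not call it (adjusted p = 0.137). The sum of EIF5A and EIF5AL1 gave 1.33 (adjusted p = 0.00183).

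Ratios between genes within a library do not depend on how libraries are scaled, and 8 were compared, each as the log2 of 1 gene's counts over another's with a pseudocount of 0.5. EIF4EBP1 over EIF4E rose from -1.86 ± 0.35 to -0.27 ± 0.13 (SD, n = 5 each), a difference of 1.59 (two-sided exact permutation test, p = 0.00794, adjusted over the 8 ratios p = 0.0212). EIF4G2 over EIF4G1 rose by 0.87 and EIF4G3 over EIF4G1 by 0.70, both with the same exact permutation p-values, and in all 3 ratios the groups did not overlap and 5 of 5 pairs rose. DAP5 mRNA was thus at 0.96 above the main scaffold's on the log2 scale in control and at 1.83 with tunicamycin. EIF2B5 over EIF2S1, the catalytic exchange subunit against its regulated target, fell by 0.33 with overlapping groups and 4 of 5 pairs lower (exact permutation, adjusted p = 0.0476), and it lost the call without any of the 5 control libraries or tunicamycin replicate 4 or 5, with exact permutation adjusted p-values of 0.0508 to 0.0847. EIF5 over EIF2S2 (0.16, adjusted p = 0.0508), EIF1B over EIF1 (-0.37, adjusted p = 0.0529), EIF4EBP2 over EIF4E (-0.16, adjusted p = 0.0907) and EIF4A2 over EIF4A1 (0.10, adjusted p = 0.659) did not pass in the same exact permutation test. EIF5 over EIF2S2 passed without control replicate 1 (0.19, exact permutation, adjusted p = 0.0159) and EIF1B over EIF1 without tunicamycin replicate 5 (-0.49, exact permutation, adjusted p = 0.0159). Sign flips within the 5 pairs cannot give a p under 0.0625, so none of the ratios can be called with the pairing.

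**Figure D4:**
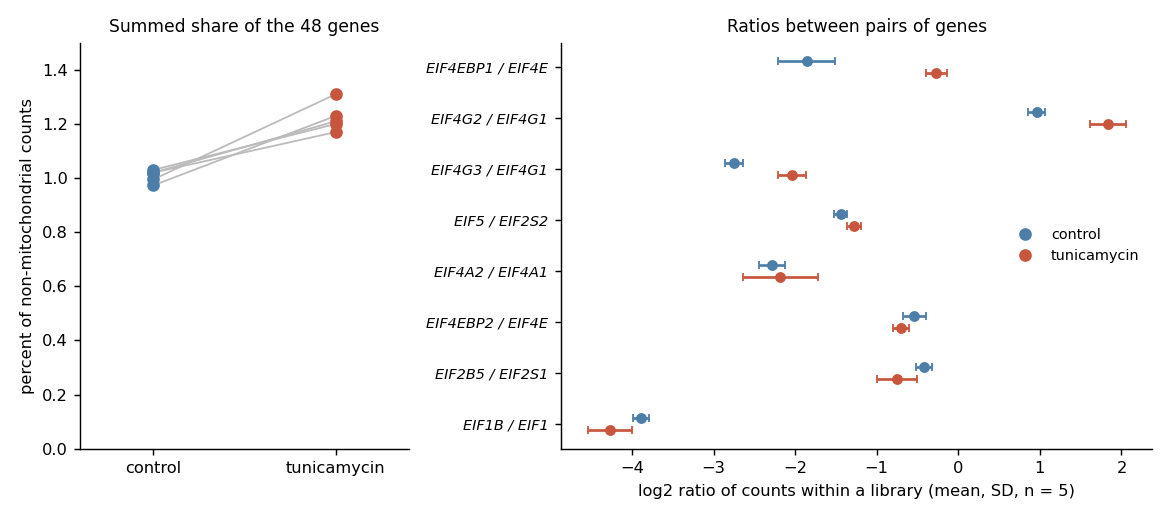
Left, summed share of the 48 genes in the non-mitochondrial counts of each library, with grey lines joining the libraries of a replicate number, all of which rise. Right, log2 ratios of counts between pairs of genes within a library (mean and SD, n = 5 per condition), where EIF4EBP1 over EIF4E and both eIF4G ratios separate by condition.

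Around the initiation factors, 54 genes of 7 lists of regulators and partners were tested, of which 18 were higher and 4 lower, with a median log2 fold change of 0.08. The shares over all genes tested, 17.6% higher and 16.6% lower, are the background for these and the following counts, and several of the lists lie near them. PAIP2B, EEF1A2 and EEF1G had 0 counts in every library, GSPT2 had 0.845 normalized counts in tunicamycin replicate 1 and 0 elsewhere, and none of them was tested. A count of 0 does not by itself show that a gene is not expressed, as the assignment of reads was not examined. With the replicate block 19 were higher and 5 lower, and with library size as the only scaling 14 and 7. Of 8 eIF2α kinases and their regulators, 2 were higher and 2 lower. DNAJC3, coding for the ER cochaperone p58IPK that restrains PERK, rose from 461 ± 78.6 to 1755 ± 259 normalized counts (1.93, adjusted p = 8.74e-10). EIF2AK3, the PERK gene, rose from 104 ± 20.8 to 145 ± 26.4 (0.47, adjusted p = 0.0229), and EIF2AK4, coding for the amino acid sensor GCN2, fell from 225 ± 12.7 to 183 ± 21.9 (-0.30, adjusted p = 0.035; SD, n = 5 each). EIF2AK3 was not called with library size as the only scaling (0.39, adjusted p = 0.0548). Of 5 genes of the eIF2α phosphatase, 2 were higher. PPP1R15A, coding for the stress-induced targeting subunit GADD34, rose from 58.0 ± 11.9 to 166 ± 5.33 (1.52, adjusted p = 1.51e-07), PPP1CB, a catalytic subunit gene, had 0.41 (adjusted p = 0.00171), and PPP1R15B, the constitutive targeting subunit gene, was not called at 0.03 (adjusted p = 0.852).

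Of 13 genes of the mTORC1 axis, 3 were higher and 0 lower. They were TRIB3, a pseudokinase gene and ATF4 target, at 0.80 (adjusted p = 5.27e-07), RHEB, the GTPase that activates mTORC1, at 0.74 (adjusted p = 0.00364), and LARP1, which binds mRNAs with a terminal oligopyrimidine tract, at 0.26 (adjusted p = 0.0182; 0.142 with library size only). Among 10 tested genes of eIF4E kinases, the eIF4A inhibitor and poly(A)-binding proteins, 4 were higher and 0 lower. PAIP2, an inhibitor of poly(A)-binding protein, had a log2 fold change of 1.22 (adjusted p = 5.03e-05), the eIF4E kinase gene MKNK2 had 0.67 (adjusted p = 1.95e-05), and PABPC1, the poly(A)-binding protein gene itself, 0.62 (adjusted p = 0.000221). Of 8 accessory factors, 2 were higher and 1 lower. These were ABCE1, which splits ribosomes, at 0.33 (adjusted p = 0.00698), DENR, a recycling factor related to eIF2D, at 0.31 (adjusted p = 0.00546), and the mitochondrial initiation factor gene MTIF3 at -0.26 (adjusted p = 0.0485), which was not called with the replicate block (adjusted p = 0.062). With library size as the only scaling, the adjusted p was 0.0649 for ABCE1 and 0.0648 for DENR.

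Hypusine is made on eIF5A by a pair of enzymes, of whose genes 1 was lower and 0 higher. DOHH, coding for the second enzyme, fell from 96.7 ± 27.2 to 67.6 ± 10.1 normalized counts (mean ± SD, n = 5 each; -0.52, adjusted p = 0.0335), and DHPS, coding for the first, was not called at 0.40 (adjusted p = 0.149). Of 8 tested elongation and termination factors, 5 were higher and 0 lower. EEF1A1 had a log2 fold change of 0.97 (adjusted p = 0.000745), with control libraries between 159 and 475 normalized counts and treated libraries between 698 and 778. Repeated 3′ sequence was looked up only for the initiation factor genes, so its part in the counts of EEF1A1 and the other list genes was not tested. EEF1E1, a gene of the aminoacyl-tRNA synthetase complex, had 0.73 (adjusted p = 0.000328). ETF1, coding for the release factor eRF1, had 0.70 (adjusted p = 0.00935), with 4 treated libraries between 407 and 460 and tunicamycin replicate 5 at 1025.

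Exons of other genes overlap those of 24 of the 48 genes on the opposite strand and of 8 on the same strand in GENCODE v44, and whether counting used the strand is not given in the sources used here. Examples among the higher genes are EIF2A with SERP1, EIF3H with UTP23, EIF3J with SPG11, EIF3M with CCDC73, EIF4G2 with CTR9, EIF5A with GPS2 and EIF2B1 with DDX55 and GTF2H3 on the opposite strand, and EIF1B, EIF5 and EIF6 with genes on the same strand, while EIF1, EIF2S1, EIF2S2, EIF2S3, EIF2D and EIF4EBP1 overlap no exon of another gene.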

How the data were processed

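RNA of HepG2 cells was extracted in 5 replicate experiments per condition, and libraries were made with the QuantSeq 3′ mRNA-Seq kit (FWD). The authors ran the nf-core RNA-Seq pipeline 1.4.2 with default settings on hg19 with Ensembl release 87, and the deposited table holds raw counts per gene for 32738 genes in 10 libraries, with 0 sample columns left out. The aligner, the counting program and the strand setting are not given in the sources used here.

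From these counts, genes were filtered with filterByExpr (minimum count 2, minimum total 10), libraries were scaled by TMM, and 12733 genes were tested by quasi-likelihood in edgeR 4.0.16 (R 4.3.3) with condition as the only term and Benjamini-Hochberg adjustment at 0.05. The standard error is the absolute log2 fold change over the square root of F. Shares and ratios were compared by exact permutation tests over libraries. The members and lists were chosen with earlier results of these data known. Every member was named; called members with the same direction in all 5 pairs and at least 20 normalized counts were given with levels, the 14 largest changes of these, the eIF2 subunit genes, EIF3C, EIF3CL and EIF4EBP1 with every library, and up to 3 called genes per pathway list were named. EIF2A, EIF5AL1, SERP1, PPP1R15B and DHPS were given these values after they had been seen.

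Replicate numbers pair libraries, as the series text states separate days. Paired libraries' deviations from their condition mean correlated at 0.322, 0.0141, 0.0397, 0.13 and 0.103 in replicates 1 to 5 (10736 genes), and the highest correlations with another number were -0.00976, 0.129, 0.052, 0.121 and 0.136, so that the pairing rests on the stated days. Alternatives were DESeq2 1.42.0, DESeq2 size factors, library size only, no filter, filterByExpr's default minimums (10 and 15), the replicate block with edgeR and with DESeq2, counts thinned to the smallest library, near-identical copies summed and each library left out. Leaving out both libraries of a replicate number was added after seeing the data. Counts were also simulated for 5 against 5 libraries with 200 changed genes (12503 genes tested). There edgeR called 79 of 102 genes with a log2 change of 1 (77.5%) and 91 of 98 with a log2 change of 2 (92.9%). It called 0 in the wrong direction and 12 unchanged genes. The simulation held no effect of the day, and in the real libraries 17.6% of genes were called higher and 16.6% lower. Its rates are therefore not those of the real comparison. The p-values measure the spread between these libraries.

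Gene positions come from GRCh38 with GENCODE v44, matched by Ensembl identifier for all 48 genes, and promoter windows from RefSeq on GRCh38.p14. No coordinate of hg19 is given.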

Additional observations from a re-analysis of the deposited data

Results flagged for a closer look

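In 98 groups of 5 values, 9 values of the initiation factor genes lay far from the other 4 of their condition by Dixon's test at its 95% critical value of 0.71. Chance gives about 4.9 such values. All 9 fell in 3 libraries. In control replicate 1, EIF2B4 had 297 normalized counts (the others 207 to 232), EIF5 had 1118 (919 to 967), EIF3K had 734 (550 to 590) and EIF5A had 313 (455 to 483). In tunicamycin replicate 1, EIF3B had 1035 (843 to 896), EIF3L had 929 (701 to 748) and EIF4H had 44.8 (92.0 to 96.3). In tunicamycin replicate 4, EIF4B had 464 (365 to 388) and EIF3CL had 9.62 (4.96 to 6.05). The calls of EIF5, EIF5A, EIF4H and EIF4B held without the library concerned. The cause was not tested.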

How the results depend on the processing

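Of the 27 called genes, 22 kept their call in every alternative that tested them, 5 lost it in at least 1 (EIF2B1, EIF2B2, EIF4E2, EIF5AL1 and EIF6), and 0 changed direction. The number of higher genes was 23 to 29 over all alternatives. The number of lower genes was 2 with library size only and with the replicate block, 0 to 2 without single libraries and 0 to 3 without both libraries of a replicate number. The median log2 fold change was 0.28 with library size only. Of the pathway genes, 7 were lower under library size scaling, 2 without the filter, 1 with thinned counts, 1 to 5 without single libraries and 0 to 5 without both libraries of a replicate number. With sign flips within pairs, the replicate block for shares and ratios, 0 ratios passed and the share difference of 0.219 had an exact p of 0.0625. In edgeR the replicate block also called TSC1 and ABCF1 lower and BZW2 higher, ended the call of MTIF3, called EIF1AX and EIF4A2, and changed no other call of a named gene. In DESeq2 it called neither EIF1AX nor EIF4A2 and ended the calls of EIF2B2 (adjusted p = 0.0798) and EIF5AL1 (0.137). EIF4EBP1 had the largest log2 fold change as reported (1.62), but with the replicate block EIF4H was at 1.64 and EIF4EBP1 at 1.63.

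Of the 21 uncalled genes, 8 changed sign somewhere. With library size only, the log2 fold changes were -0.01 for EIF2B5, -0.01 for EIF3K, -0.04 for EIF4E and -0.04 for EIF4ENIF1, which was at -0.00 in DESeq2 with the replicate block, and EIF3CL was at -0.37 with thinned counts. Without single libraries, EIF2B4 ranged from -0.10 to 0.06, EIF3C from -0.97 to 0.07 and EIF4ENIF1 from -0.13 to 0.16. Without both libraries of replicate 1, EIF2B4 was at 0.01 and EIF3J-AS1 at 0.02. EIF3C was at 0.11 without replicate 3 and 0.06 without replicate 5, and EIF4ENIF1 at -0.17 without replicate 4. The ratio of EIF4A2 to EIF4A1 ranged from -0.04 to 0.25 without single libraries, negative only without tunicamycin replicate 5. The cause was not tested in any of these.

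Limits are the few counts of EIF3CL in every library, the lower depth of tunicamycin replicate 5 and repeated 3′ sequence.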

Other observations

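Extreme values of the 48 genes were not spread evenly over the libraries. In control replicate 1, 21 genes had their lowest and 17 their highest control value, while control replicate 5 held the lowest value of 15 genes and the highest of 1, and control replicate 3 the lowest of 1 and the highest of 10. With tunicamycin, replicate 4 held the highest value of 18 genes and replicate 1 the lowest of 14 and the highest of 13. Between the highest and lowest library of a condition, 8 genes differed by more than 2-fold in control, 7 with tunicamycin and 3 in both, while 26 stayed within 1.5-fold in both conditions.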
